A study of Mus musculus with 8 samples.

Results

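The 39 genes described here encode the nuclear regulators, transporters and enzymes that carry fatty acids into mitochondria and peroxisomes and break them down, together with ketone body enzymes, acyl-CoA thioesterases, fatty acid omega-hydroxylases and other targets of the nuclear receptor PPARα. They were taken by gene symbol from a fixed list, and all 39 were among the 19642 genes of the liver count table. All 39 also passed the filter on low counts, which left 14214 genes to test. The comparison asks how far the fatty acid oxidation program of the liver differs when hepatocytes lose NgBR, a subunit of the enzyme that makes the precursor of dolichol. Liver RNA came from 4 WT and 4 N-LKO male C57BL6 mice fed a CD (chow diet), and the titles number the samples as biological replicates, each taken here as 1 mouse. N-LKO mice lack NgBR, encoded by Nus1, through loxP-flanked alleles cut by a Cre recombinase under the albumin promoter, a promoter active in hepatocytes and their precursors, so that stellate, endothelial and immune cells of these livers should keep the gene. The chow lasted 8 weeks by the sample titles and a supplementary legend for these livers and 16 weeks by the treatment entries, so its length is uncertain, and the ages at collection were not given in the sources used here.

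PPARα binds DNA with RXR at direct repeats in the promoters and enhancers of its target genes and is activated by fatty acids released during fasting. Long-chain fatty acids enter mitochondria as carnitine esters, are shortened by a cycle of dehydrogenation, hydration, dehydrogenation and thiolysis, and leave as acetyl-CoA, which the liver turns into ketone bodies. Very long-chain and branched fatty acids are shortened first in peroxisomes by a parallel set of enzymes, and omega-oxidation in the endoplasmic reticulum makes dicarboxylic acids that peroxisomes then shorten.

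Nus1 was at 82.0, 90.4, 90.5 and 89.7 CPM (counts scaled to library size) in WT replicates 1 to 4. In N-LKO replicates 1 to 4 it was at 33.3, 36.2, 38.8 and 38.7 CPM. All 4 N-LKO livers lay below all 4 WT livers, as the labels require, and the difference was -1.26 on the log2 scale (standard error, SE, 0.0748, with edgeR's adjusted p = 3.06e-05). The total count per library was 15430519 to 18412201 in WT and 14688404 to 18585412 in N-LKO livers. The hepatocyte markers (10 of 10 tested, Alb and Apob among them) summed to 92060 to 122200 CPM in WT and 96110 to 114500 CPM in N-LKO livers, and 0 of them were called by edgeR, DESeq2 or limma-voom, with 0 at an unadjusted edgeR p under 0.05.

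None of the 39 fatty acid oxidation genes was called as different between N-LKO and WT livers by edgeR or limma-voom. With edgeR (quasi-likelihood test, p-values adjusted by Benjamini-Hochberg over 14214 genes), 0 of the 39 had an adjusted p under 0.05, against 148 of all genes (1.04%). Limma-voom also called 0 of them, against 0.886% of all genes, and DESeq2 called 2, Acaa1a and Ucp2, against 2.61% of all genes. At an unadjusted edgeR p under 0.05, 6 of the 39 were lower in N-LKO livers, Acadl, Hadhb, Eci1, Acaa1a, Acaa1b and Bdh1, where 5.9% of all genes were. On the higher side there was 1, Ucp2, where 6.87% of all genes were. The genotypes did not overlap for 1 gene that was lower, Acaa1a, against 3.32% of all genes, and for 1 that was higher, Ucp2, against 4.2% of all genes. The p-values set the genotype difference against the estimated spread between mice of the same genotype. Because whole liver was sequenced, fewer cells of a type and less RNA per cell cannot be told apart.

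The differences that were measured were small. Log2 fold changes of the 39 genes ran from -0.56 to 0.58 with a median of -0.091, where the median of all genes tested was -0.003. Leaving out 1 mouse moved the median of the 39 to between -0.184, without N-LKO replicate 2, and -0.039, without WT replicate 4. It was -0.041 without WT replicate 3. They were below 0 for 26 of 39 genes (66.7%), against 50.7% of all genes. The 95% confidence interval lay within 1 log2 unit on either side of 0 for 33 of 39 genes, against 12124 of 14214 tested. It lay within 0.5 for 7717 of all genes tested and for 26 of the 39. All 12 mitochondrial beta-oxidation genes and all 4 carnitine shuttle genes were among those 26. Of the 4 thioesterases 0 had an interval within 0.5.

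**Figure D1:**
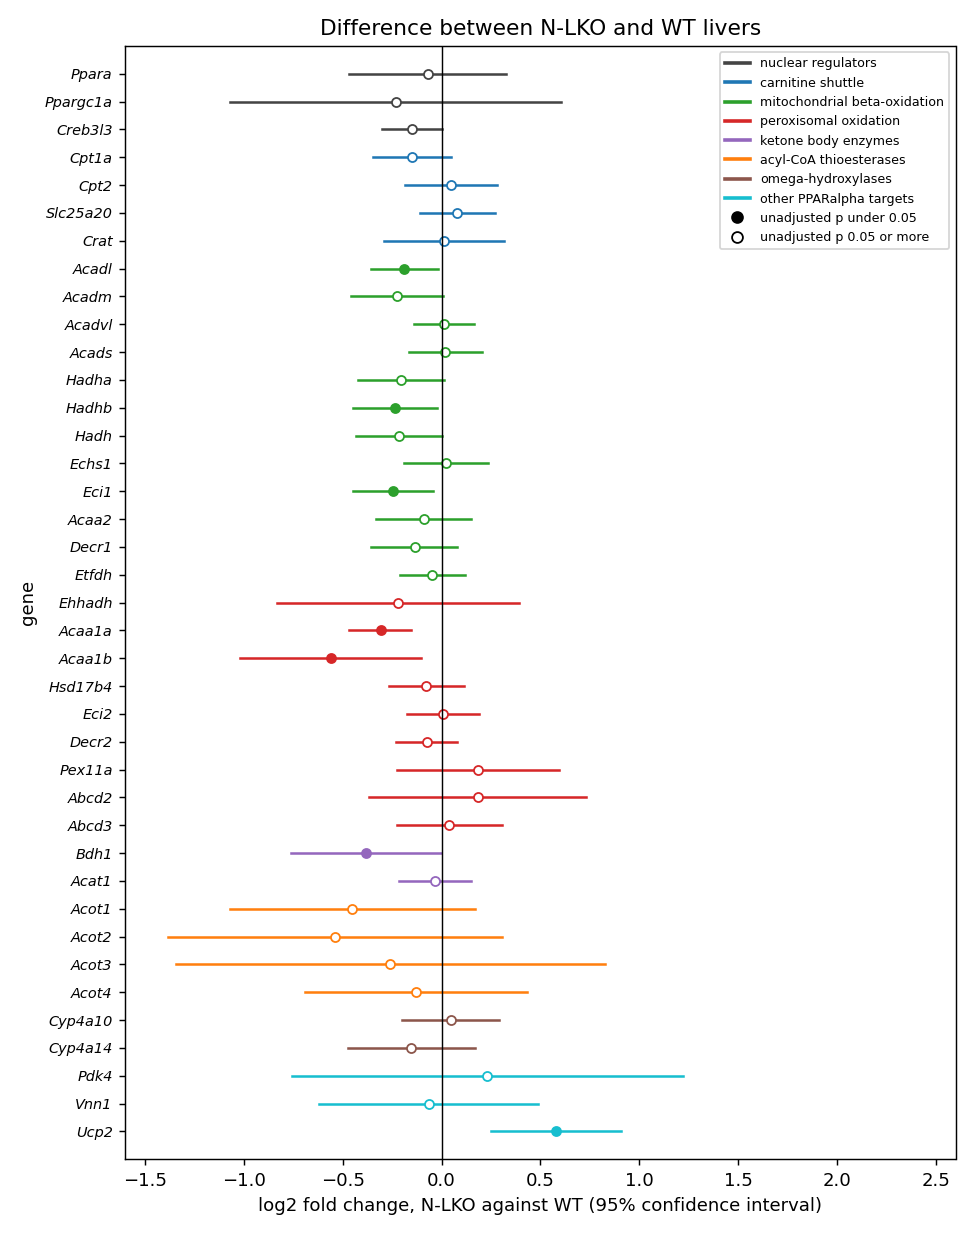
Log2 fold change of each gene (x axis, N-LKO against WT, 4 livers each) with its 95% confidence interval from edgeR, not adjusted for the number of genes, in rows by role. Filled points mark the 7 genes with an unadjusted p under 0.05, and intervals are narrow for the carnitine shuttle and mitochondrial genes and wide for Ppargc1a, Pdk4 and the acyl-CoA thioesterases.

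None of the 3 nuclear regulators passed the threshold. Ppara, the receptor itself (GRCm38 chr15:85734983-85802819, plus strand), was at 64.4, 105, 87.6 and 114 CPM in WT replicates 1 to 4. In N-LKO replicates 1 to 4 it was at 66.1, 106, 94.0 and 88.3 CPM. Replicate 1 was the lowest mouse of both groups, which otherwise covered the same range. It differed by -0.07 on the log2 scale (SE 0.180, adjusted p = 0.918, edgeR), with an interval of -0.47 to 0.33. Ppargc1a (chr5:51454250-51567726, minus strand) encodes PGC-1α, a co-activator of PPARα that rises in fasting. Its level was 71.9, 72.5, 22.3 and 36.1 CPM in the WT livers and 42.6, 59.1, 20.7 and 50.2 CPM in the N-LKO livers, in replicate order. WT replicate 3 and N-LKO replicate 3 were lowest, and the highest WT liver was 3.26 times the lowest. With that spread the log2 fold change of -0.23 had a SE of 0.379 (adjusted p = 0.857, edgeR). Creb3l3 (chr10:81084324-81098874, minus strand) encodes CREB-H, a membrane-bound factor that works with PPARα on fasting genes. It was at 208, 200, 204 and 212 CPM in WT and at 178, 201, 183 and 182 CPM in N-LKO livers. N-LKO replicate 2 lay inside the WT range and the other 3 N-LKO livers lay below it. On the log2 scale the difference was -0.15 (SE 0.0689, unadjusted p of 0.0556, adjusted p = 0.403, edgeR).

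Carnitine shuttle genes lay close to 0. Cpt1a (chr19:3322334-3385733, plus strand) encodes the outer-membrane transferase that controls entry of long-chain fatty acids. WT livers were at 993, 1004, 894 and 978 CPM and N-LKO livers at 819.9, 948, 919 and 804 CPM. The 2 lowest livers were N-LKO replicates 4 and 1, and the others overlapped. Its log2 fold change of -0.15 (SE 0.0889, adjusted p = 0.536, edgeR) had an interval of -0.345 to 0.048. Cpt2, the inner-membrane transferase, Slc25a20, the carnitine-acylcarnitine exchanger, and Crat, carnitine acetyltransferase, had log2 fold changes of 0.047, 0.08 and 0.014, each with overlapping groups. Every interval of the 4 genes stayed within 0.345 of 0.

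Of the 12 mitochondrial beta-oxidation genes, 3 had an unadjusted p under 0.05, and 9 of 12 had a log2 fold change below 0 (median -0.16). Acadl (chr1:66830839-66863277, minus strand), the long-chain acyl-CoA dehydrogenase that starts the cycle, was at 375, 386, 397 and 398 CPM in WT and at 338, 379.7, 328 and 321 CPM in N-LKO livers. WT livers lay within a narrow range, and only N-LKO replicate 2 reached it. The log2 fold change was -0.19 (SE 0.0776, unadjusted p of 0.0345, adjusted p = 0.343, edgeR), so that the N-LKO mean was 87.8% of the WT mean. Hadhb (chr5:30155248-30184593, plus strand) is the thiolase subunit of the mitochondrial trifunctional protein. It was at 138, 148, 177 and 172 CPM in WT and at 127.5, 149.8, 134.5 and 127.5 CPM in N-LKO livers. N-LKO replicate 2 overlapped the lower WT livers, replicates 1 and 2. Hadhb differed by -0.24 on the log2 scale (SE 0.0963, adjusted p = 0.335, edgeR). Hadha, its partner subunit on the opposite strand next to it, had a log2 fold change of -0.21 (adjusted p = 0.414, edgeR). Eci1 (chr17:24426641-24439348, plus strand), an enoyl-CoA isomerase needed for unsaturated fatty acids, was at 81.1, 104, 96.9 and 99.3 CPM in WT livers. N-LKO livers were at 74.2, 84.4, 86.7 and 76.2 CPM. WT replicate 1 fell inside the N-LKO range and the other 3 WT livers lay above it. For Eci1 the log2 fold change was -0.25 (SE 0.0917, unadjusted p of 0.0213, adjusted p = 0.281, edgeR).

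The remaining mitochondrial enzymes split by size. Acadm, the medium-chain dehydrogenase, and Hadh, the short-chain hydroxyacyl-CoA dehydrogenase, had log2 fold changes of -0.225 and -0.215 with unadjusted p of 0.0552 and 0.0508 (edgeR, adjusted p = 0.402 and 0.392). Decr1, a dienoyl-CoA reductase, Acaa2, the mitochondrial thiolase, and Etfdh, which passes electrons to the respiratory chain, were at -0.14, -0.091 and -0.046. Acadvl, the very-long-chain dehydrogenase, Acads, the short-chain dehydrogenase, and Echs1, the short-chain hydratase, were at 0.014, 0.018 and 0.022. Acadvl was the tightest, with an interval of -0.14 to 0.17.

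**Figure D2:**
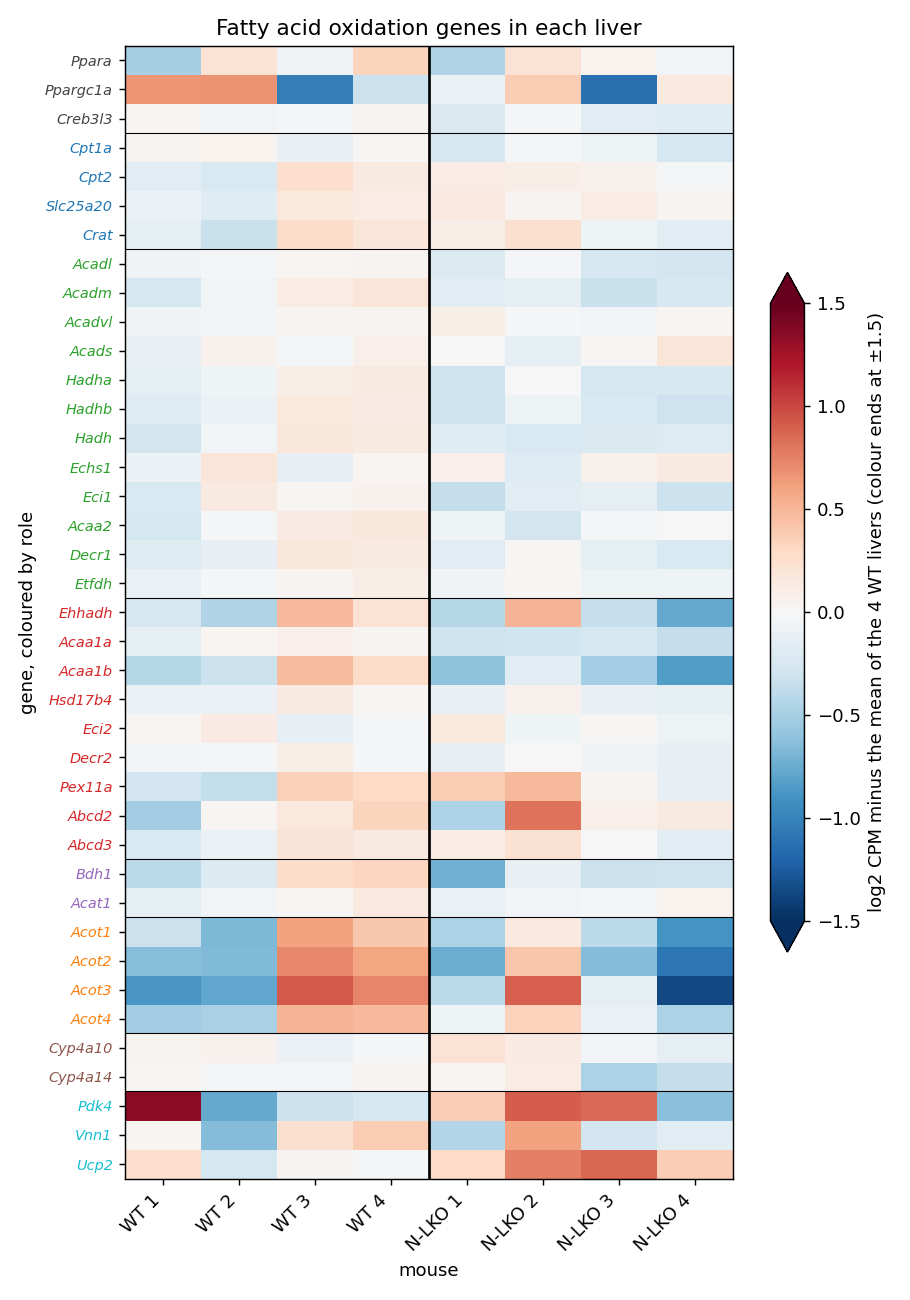
Each cell is the log2 CPM of a gene in 1 liver minus the mean of the 4 WT livers (colour scale in log2 units, red higher and blue lower, ends at 1.5), with genes in rows by role and the 8 mice in columns. WT 3, WT 4 and N-LKO 2 are red across the thioesterases and several peroxisomal genes, and Pdk4 is highest in WT 1. WT 1, WT 2 and N-LKO 4 are blue across the thioesterases, as are N-LKO 1 and N-LKO 3, more faintly for Acot3 and Acot4.

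The 9 peroxisomal genes held the member with the lowest p, Acaa1a. Acaa1a (chr9:119339676-119350299, plus strand) and Acaa1b (chr9:119148023-119157093, minus strand) encode the peroxisomal thiolases that close the peroxisomal cycle. Acaa1a was at 134, 151, 157 and 153 CPM in WT livers. N-LKO livers were at 119.9, 121, 124 and 116 CPM. The highest N-LKO liver was below the lowest WT liver, WT replicate 1. The N-LKO mean was 80.7% of the WT mean, with a log2 fold change of -0.31 (SE 0.0709, interval -0.47 to -0.15). The adjusted p was 0.0768 in edgeR, 0.0819 in limma-voom and 0.00416 in DESeq2. Leaving out 1 mouse gave 0.0468 to 0.208 in edgeR, under the threshold only without WT replicate 1. Acaa1b was the more abundant copy and the more variable, at 585, 627, 1091 and 946 CPM in WT livers. In N-LKO livers it was at 515, 698, 551 and 438 CPM. WT replicates 3 and 4 stood above all other livers, and WT replicates 1 and 2 lay within the N-LKO range. Its log2 fold change of -0.56 was the most negative of the 39 (SE 0.208, unadjusted p of 0.0209, adjusted p = 0.280, edgeR). With each mouse left out in turn it ran from -0.69 without N-LKO replicate 2 to -0.39 without WT replicate 3, with adjusted p from edgeR of 0.163 to 0.495.

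Acaa1a and Acaa1b are copies whose reads can be assigned to either, so the first coding bases are shown as evidence of how little separates them. Their coding sequences match at 1228 of 1272 aligned bases (96.5%), and 29.9% of the 75-base windows of each are found in the other without a mismatch. The methods name 75-base reads beside 45 cycles, and of 45-base windows 40.7% are shared. The lines give coding bases 1 to 90, 5′ to 3′, from GENCODE M21 on GRCm38, with the 3 bases that differ in capitals (Acaa1a chr9:119341515-119341604, plus strand, and Acaa1b chr9:119156905-119156994, minus strand).
Acaa1a: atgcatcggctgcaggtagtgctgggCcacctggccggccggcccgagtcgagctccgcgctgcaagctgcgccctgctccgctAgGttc
Acaa1b: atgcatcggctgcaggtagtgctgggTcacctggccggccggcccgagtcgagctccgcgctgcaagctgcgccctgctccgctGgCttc
Summed over the 2 genes, which moves no reads between copies, the level was 719.8, 778, 1248 and 1098 CPM in WT livers and 635, 819, 675 and 554 CPM in N-LKO livers. N-LKO replicate 2 overlapped WT replicates 1 and 2. The log2 fold change of the sum was -0.52 (SE 0.182, unadjusted p of 0.0163, adjusted p = 0.250, edgeR). Genes on the opposite strand overlap both, Myd88 and Slc22a14 for Acaa1a and Dlec1 for Acaa1b. Whether counting used strand is not stated, which leaves both levels uncertain for that reason too.

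The other peroxisomal genes lay on both sides of 0. Ehhadh, the peroxisomal bifunctional enzyme, was the third most abundant gene of the list per length. It ranged from 1890 to 3618 CPM in WT and from 1516 to 3696 CPM in N-LKO livers. The difference was -0.22 on the log2 scale (SE 0.277, adjusted p = 0.802, edgeR). Hsd17b4, the second bifunctional enzyme, Decr2, a dienoyl-CoA reductase, and Eci2, an enoyl-CoA isomerase, had log2 fold changes of -0.077, -0.075 and 0.008. Abcd2 and Abcd3, transporters of very long-chain acyl-CoA into peroxisomes, were at 0.18 and 0.04, and Pex11a, which promotes peroxisome division, was at 0.18. The adjusted p of these 6 genes was 0.716 or more in edgeR.

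Ketone body enzymes were represented by Bdh1 and Acat1. Bdh1 (chr16:31422280-31458901, plus strand) interconverts acetoacetate and beta-hydroxybutyrate. WT livers were at 139, 158, 221 and 227 CPM and N-LKO livers at 110.2, 169, 146 and 147 CPM. WT replicates 3 and 4 were above all N-LKO livers, and WT replicates 1 and 2 were not. Bdh1 differed by -0.38 on the log2 scale (SE 0.172, unadjusted p of 0.0488, adjusted p = 0.389, edgeR), with an interval of -0.76 to -0.002. Acat1, which makes acetoacetyl-CoA, had a log2 fold change of -0.032 and an interval of -0.21 to 0.15.

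**Figure D3:**
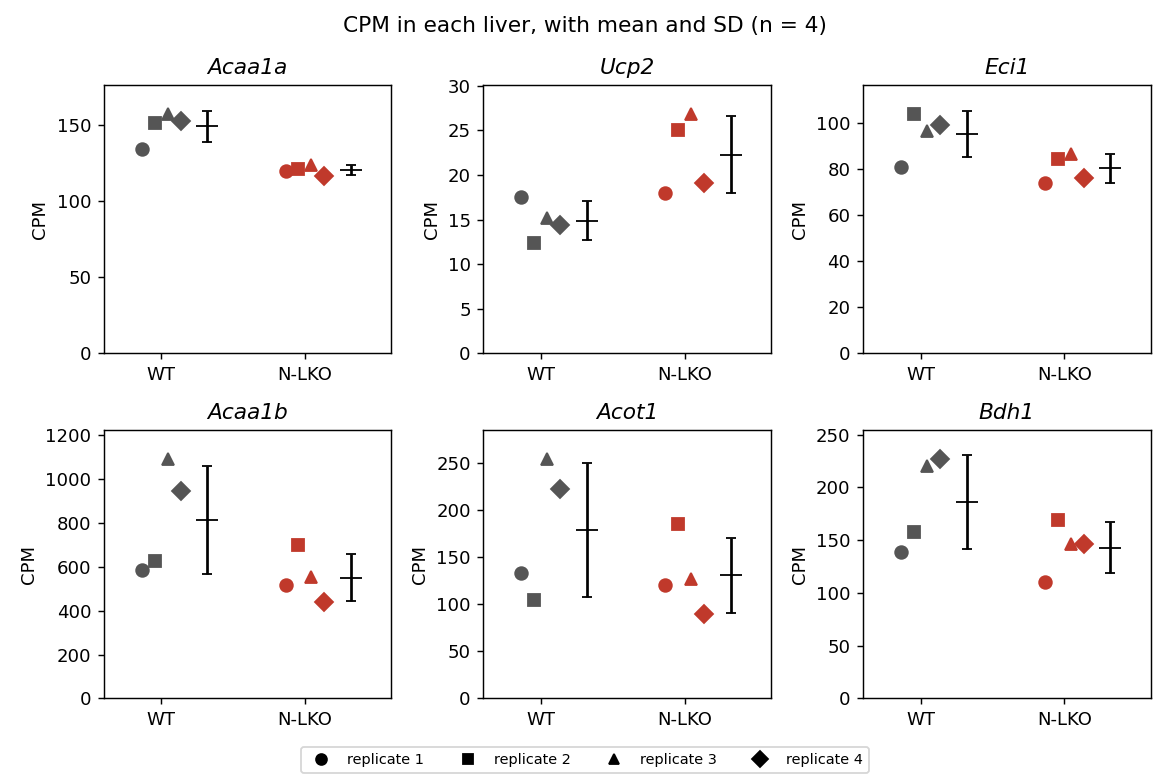
Level in CPM (y axis, from 0) of 6 genes in each WT and N-LKO liver, with symbols for replicates 1 to 4 and the mean with SD (n = 4) beside them. The genotypes do not overlap for Acaa1a and Ucp2, and for Acaa1b, Acot1 and Bdh1 the highest livers are WT replicates 3 and 4.

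The acyl-CoA thioesterases release free fatty acids from CoA in the cytosol (Acot1), mitochondria (Acot2) and peroxisomes (Acot3, Acot4). Of the roles they had the highest median SD between mice of 1 genotype, 0.613 log2 units. Single genes of other roles, Pdk4 (0.825) and Ppargc1a (0.750), passed all of them but Acot3 (0.942). Acot1 (chr12:84009490-84018371, plus strand) was at 134, 105, 255 and 222 CPM in WT and at 121, 185, 127 and 90.2 CPM in N-LKO livers. Acot2 (chr12:83987861-83993873, plus strand) was at 22.7, 22.4, 58.5 and 53.6 CPM in WT and at 21.2, 47.5, 22.7 and 16.8 CPM in N-LKO livers. In both genes WT replicates 3 and 4 and N-LKO replicate 2 stood apart from the other 5 livers, which lay together whatever their genotype. Their log2 fold changes of -0.45 (SE 0.281, adjusted p = 0.551) and -0.54 (SE 0.383, adjusted p = 0.610, edgeR) were among the 5 largest of the list, and neither exceeded the spread within a genotype. Leaving out 1 mouse moved Acot1 to between -0.66, without N-LKO replicate 2, and -0.23, without WT replicate 3. Acot2 moved to between -0.95 and -0.29 without the same mice. Acot3 ranged from 10.8 to 37.7 CPM in WT and from 7.67 to 36.96 CPM in N-LKO livers, a difference of -0.26 on the log2 scale. Acot4 ranged from 77.1 to 158 CPM and from 79.6 to 140 CPM, with a log2 fold change of -0.13.

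These genes are copies in 1 cluster, and a stretch of Acot1 and Acot2 is shown because short reads can be assigned to either. The 2 coding sequences match at 1181 of 1236 aligned bases (95.6%). Of the 75-base windows, 49.1% in Acot1, 35% in Acot2, 45.3% in Acot3 and 9.17% in Acot4 occur unchanged in another gene. The lines give coding bases 30 to 119 of Acot1 (GRCm38 chr12:84009539-84009628, plus strand) and 153 to 242 of Acot2 (chr12:83988054-83988143, plus strand), 5′ to 3′, with the 4 differing bases in capitals.
Acot1: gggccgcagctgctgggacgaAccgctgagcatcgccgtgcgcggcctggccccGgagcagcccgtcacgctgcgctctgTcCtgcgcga
Acot2: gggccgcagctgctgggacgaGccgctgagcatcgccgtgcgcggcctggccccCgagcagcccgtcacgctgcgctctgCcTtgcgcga
The sum of Acot1 to Acot6 was 246, 219, 511 and 467 CPM in WT livers. In N-LKO livers it was 265, 413, 274 and 196 CPM. The same 3 livers were highest as for Acot1 alone, and the log2 fold change of the sum was -0.33 (SE 0.291, adjusted p = 0.699, edgeR). Acot3 and Acot4 also overlap the predicted genes Gm49366, on the same strand, and 4732463B04Rik, on the other. Gm49366 is among the genes that hold 75-base windows of Acot3, so the 45.3% need not all be likeness between copies.

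Cyp4a14 and Cyp4a10, omega-hydroxylases of fatty acids and classical targets of PPARα in mouse liver, were the most abundant genes of the list. Per kb of exon length they stood at 3008 and 2012 CPM per kb in WT livers, ahead of Ehhadh at 896, Acaa1b at 414 and Acaa2 at 312 CPM per kb, and Ucp2 was last at 2.13 CPM per kb. Cyp4a14 ranged from 7641 to 8029 CPM in WT livers and from 5624 to 8483 CPM in N-LKO livers. N-LKO replicates 3 and 4 were the lowest livers and N-LKO replicate 2 was the highest, so that the WT range lay inside the N-LKO range. The log2 fold changes were -0.15 for Cyp4a14 (SE 0.145, adjusted p = 0.721) and 0.046 for Cyp4a10 (SE 0.111, adjusted p = 0.911, edgeR). Of the 75-base windows of Cyp4a10, 26.6% occur in Cyp4a31 or Cyp4a32, and none of those of Cyp4a14 occur in another gene. Summed over 6 Cyp4a genes the log2 fold change was -0.066 (SE 0.132, adjusted p = 0.891, edgeR).

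Ucp2 had the largest positive difference among the other PPARα targets. Ucp2 (chr7:100493337-100502020, plus strand) encodes a mitochondrial carrier that in normal liver is made largely by Kupffer cells. It was at 17.6, 12.3, 15.2 and 14.4 CPM in WT livers and at 18.0, 25.1, 26.9 and 19.1 CPM in N-LKO livers. All 4 N-LKO livers lay above all 4 WT livers, the nearest being N-LKO replicate 1 and WT replicate 1, which change order when libraries are scaled by their totals alone. The N-LKO mean was 149% of the WT mean, with a log2 fold change of 0.58 (SE 0.150, interval 0.25 to 0.91). The adjusted p was 0.118 in edgeR, 0.144 in limma-voom and 0.0235 in DESeq2. Dnajb13 overlaps Ucp2 on the opposite strand, which makes the count uncertain. Pdk4, the kinase that shuts pyruvate dehydrogenase in fasting, had a log2 fold change of 0.23 with a SE of 0.448, since the highest WT liver, replicate 1, was 4.34 times the lowest and the other 3 WT livers lay at 24.9 to 35.2 CPM. Vnn1, a pantetheinase, was at -0.065 (adjusted p = 0.949, edgeR).

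Some markers of other liver cells moved in these samples. Called counts below are edgeR's unless another tool is named. Of all genes edgeR called 1.04%, DESeq2 2.61% and limma-voom 0.886%. Among macrophage and Kupffer cell markers 1 of 10 was called higher, Gpnmb (log2 fold change 3.47, adjusted p = 0.00162, edgeR), and their sum was 113 to 206 CPM in WT and 124 to 206 CPM in N-LKO livers. Clec4f and Vsig4, which define Kupffer cells, averaged 30.9 and 15.8 CPM in WT livers and had log2 fold changes of -0.19 and -0.032. Timd4 of the same list averaged 4.97 CPM in WT livers. Its log2 fold change was -0.705 (unadjusted p of 0.0487, adjusted p = 0.389, edgeR). Of the 10 markers 7 had a log2 fold change below 0 and 3 above. Cholangiocyte markers (2 of 4 tested called higher, Epcam and Spp1) summed to 22.8 to 44.3 CPM in WT and 51.7 to 131 CPM in N-LKO livers. Limma-voom called 0 of these 4 and DESeq2 called 3. Fibroblast and matrix markers (3 of 8 called higher, Col1a1, Lum and Dpt) summed to 147 to 204.5 CPM and 229.6 to 328 CPM. Limma-voom called 2 of these 8, Lum and Dpt, and DESeq2 called 4. Of 8 stellate cell markers edgeR and limma-voom called 2 lower, Ecm1 and Colec10, and DESeq2 called 4. The stellate markers summed to 157 to 241 CPM in WT and 139.5 to 194 CPM in N-LKO livers. They went both ways, with 3 lower and 2 higher at an unadjusted p under 0.05, among the latter Pdgfrb (log2 fold change 1.04, adjusted p = 0.0688 in edgeR and 0.00201 in DESeq2). Of the endothelial (8 tested) and lymphocyte (2 tested) markers 0 were called by edgeR, DESeq2 or limma-voom, and 0 had an unadjusted p under 0.05. Adipocyte and muscle markers reached at most 13 counts in any library and were not tested. The part of other cells in the levels of Ucp2 and the oxidation genes was not tested.

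Several of these genes varied more between mice of 1 genotype than between the genotypes. Over all genes the median SD between mice of the same genotype was 0.199 log2 units, and 16 of the 39 genes lay above it. The 90th percentile of all genes, 0.488, was passed by 6 of the 39 (15.4%), Ppargc1a, Pdk4, Ehhadh, Acot1, Acot2 and Acot3. For all 6 the SD was larger than the absolute log2 fold change. They were picked for a large SD, and no log2 fold change of the list passed 0.58 in size, so that outcome was nearly fixed. Other genes of the list, Acadl and Eci1 among them, had a difference larger than their SD. The same comparison was not made over all genes.

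**Figure D4:**
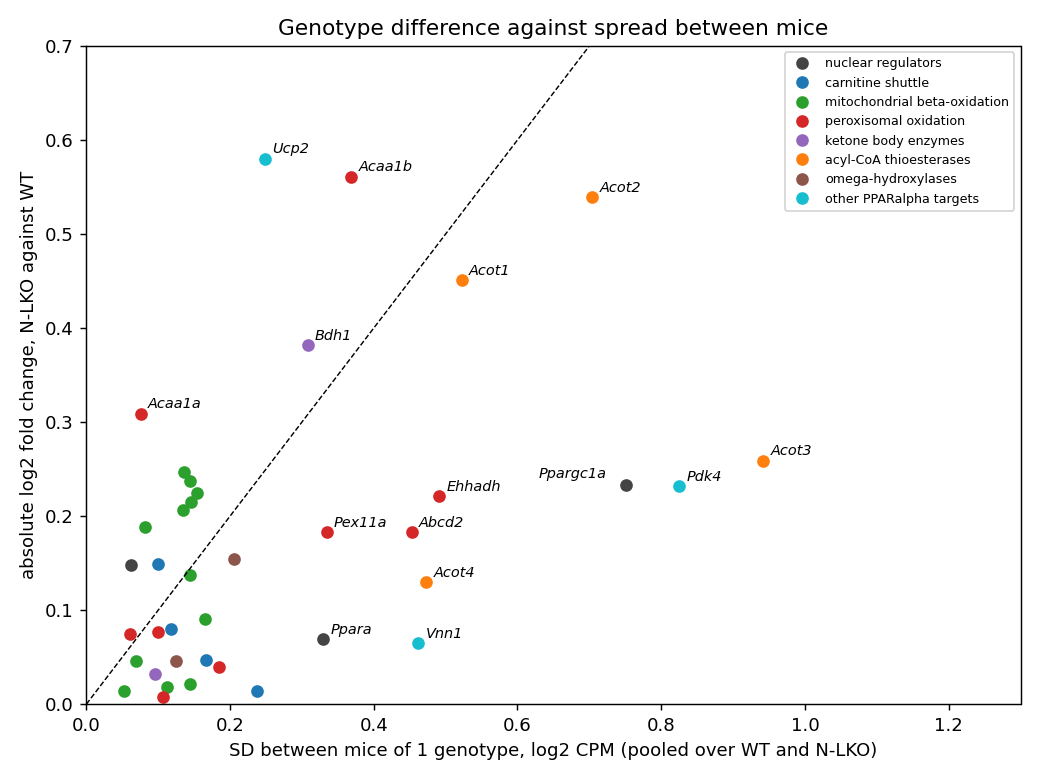
Absolute log2 fold change of each gene (y axis) against the SD of log2 CPM between mice of 1 genotype, pooled over WT and N-LKO (x axis), coloured by role, with a dashed line where they are equal. Above the line lie Acaa1a, Ucp2, Acaa1b and Bdh1, and among the smaller differences Creb3l3, Cpt1a, Acadl, Acadm, Hadha, Hadhb, Hadh, Eci1 and Decr2. Acot1, Acot2, Acot3, Ppargc1a, Pdk4 and the remaining genes lie below it.

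The same mice were high for many of these genes, a pattern noticed after the values were seen and given as a description. WT replicate 3, WT replicate 4 and N-LKO replicate 2 were the 3 highest of the 8 livers for 17 of the 39 genes (43.6%), against 360 of all genes tested (2.53%). The 17 were Acot1 to Acot4, Ehhadh, Acaa1b, Hsd17b4, Decr2, Abcd2, Abcd3, Bdh1, Crat, Hadha, Hadhb, Decr1, Etfdh and Vnn1. Among 122 other genes of the pathway the same 3 livers were highest for 11 (9.02%), including Fabp1, Plin2 and Acsl1. Haemoglobin genes, a measure of blood in the tissue, summed to 518 CPM in WT replicate 3 and 266 CPM in N-LKO replicate 2. WT replicate 4 was at 63.7 CPM and the other 5 livers at 25.3 to 104.6 CPM. With the 2 libraries of highest haemoglobin left out, an alternative chosen after the data were seen, 0 of the 39 genes were called by edgeR and 9 had an unadjusted p under 0.05.

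Beyond the 39 genes, 122 other genes of the pathway were tested and 1 of them was called by edgeR, against 1.04% of all genes. Fgf21, a hepatokine that PPARα induces in fasting, was at 5.02, 4.07, 5.07 and 4.86 CPM in WT and at 3.06, 2.38, 2.39 and 2.10 CPM in N-LKO livers. The genotypes did not overlap, and Fgf21 fell by 0.93 on the log2 scale (SE 0.163, adjusted p = 0.0224, edgeR). Leaving out 1 mouse at a time gave adjusted p from edgeR of 0.0178 to 0.0785, above the threshold without WT replicate 1, 3 or 4 and without N-LKO replicate 2, 3 or 4. Without both libraries of highest haemoglobin it was 0.109. DESeq2 called 6 of the 122 (2.61% of all genes), Fgf21, Cyp4a31, Fitm1, Acsl4, Ephx2 and Retsat, and limma-voom called Fgf21 alone. At an unadjusted edgeR p under 0.05, 14 were lower, where 5.9% of all genes were, and 4 were higher, where 6.87% of all genes were.

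Among 34 other PPARα targets and omega-oxidation genes, 8 were lower and 3 higher at an unadjusted p under 0.05, to be read against the same shares of all genes. Cyp4a31 had a log2 fold change of 0.63 (adjusted p = 0.0627) and Fitm1, which sorts triglyceride into droplets, of -1.22 (adjusted p = 0.0627, edgeR). Of 25 other mitochondrial genes 1 was lower and 1 higher at that level, Cpt1b with -0.885 (adjusted p = 0.171) and Acsl4 with 0.35 (adjusted p = 0.119, edgeR). Next lowest in p was Acad11, with -0.20 (adjusted p = 0.391, edgeR). Of 40 other peroxisomal genes 4 were lower and 0 higher at that level, and the lowest p belonged to Amacr (-0.21), Dhrs4 (-0.29) and Pex6 (-0.25), with adjusted p from edgeR of 0.232, 0.252 and 0.337. Of 23 partners and co-regulators 1 was lower at that level, Nr0b2, which encodes the repressor SHP (-1.72, adjusted p = 0.257), ahead of Ncor1 (-0.25, adjusted p = 0.429) and Ppard (0.36, adjusted p = 0.452, edgeR).

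Genes that report feeding and time of day were set beside these, because PPARα targets follow both. Of 11 fasting and gluconeogenic genes 0 were called by edgeR, DESeq2 or limma-voom and 0 had an unadjusted edgeR p under 0.05, with Fbp1 at -0.18, Pck1 at -0.36 and Igfbp1 at -1.01 lowest in p (adjusted p = 0.417, 0.487 and 0.530, edgeR). Igfbp1, which insulin represses, was at 1066, 741, 73.6 and 295 CPM in WT and at 357, 188, 205 and 333 CPM in N-LKO livers. WT replicate 3 was the lowest of the 8 and WT replicate 1 the highest. Of 16 clock genes edgeR and limma-voom called 0 and DESeq2 called 1. At an unadjusted edgeR p under 0.05 there were 4, where 12.8% of all genes were. Of these 4, 2 were lower, Nr1d1 at -1.18 and Dbp at -1.02 (adjusted p = 0.0632 and 0.322, edgeR), and 2 were higher. Log2 fold changes of 11 of the 16 lay above 0, with a median of 0.251. Nr1d1 was called by edgeR without a filter (adjusted p = 0.0463), and with 1 mouse left out its adjusted p was 0.0129, without N-LKO replicate 4, to 0.18. Feeding state and time of collection were not given in the sources used here, and their part in these levels was not tested.

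Promoter windows of the members were searched for the core that PPARα and RXR bind, AGGTCANAGGTCA, on both strands of the RefSeq windows (GRCm38.p6) that run from 250 bases before to 50 bases after each start. It was found in 13 of 32851 windows of all genes (0.0396%). The form with a free base in each half-site, AGGNCANAGGNCA, which also takes in the first form, was found in 125 (0.381%). The table held windows for 30 of the 39 genes (34 windows), and 0 of them held either form. With 0.381% of all windows holding the wider form, 34 windows are too few for this to set these genes apart. Enhancers and other sites outside the windows were not searched. Among 131 windows of 102 other pathway genes 1 held the wider form, that of Fabp1, the liver fatty acid binding protein and a classical PPARα target, on the strand opposite the gene. The match lies 67 to 55 bases before the RefSeq start that defines the window, and nearer to the start that GENCODE M21 gives, position 71199827. It is shown as the one match, with the motif in capitals, at GRCm38.p6 chr6:71199797-71199838 on the plus strand.
Fabp1: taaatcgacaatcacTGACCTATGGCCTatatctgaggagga
Fabp1 had a log2 fold change of -0.84 (SE 0.296, unadjusted p of 0.0164, adjusted p = 0.251, edgeR). It was at 1739, 1368, 3468 and 2976 CPM in WT and at 951, 1909, 1163 and 1314 CPM in N-LKO livers. WT replicates 3 and 4 were highest, and N-LKO replicate 2 came next.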

How the data were processed

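Liver RNA of 4 WT and 4 N-LKO mice was measured after removal of rRNA, and groups and replicate numbers came from the sample titles and genotype entries. Per gene and library the authors deposited 1 expected count (an estimate, not always a whole number), without scaling for depth. Of 19642 genes 52.3% had decimals. The paper's methods name TopHat2 and cuffdiff, and the submitters' processing notes name STAR, Partek and mm9. The coordinates of all 39 genes match GENCODE M21 on GRCm38. Which program gave the counts, and whether it used strand, is not given in the sources used here.

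Counts were rounded and filtered by filterByExpr (minimum count 10, minimum total 15). The quasi-likelihood test of edgeR 4.0.16 (R 4.3.3) used TMM scaling and genotype as the only term over 14214 genes, with Benjamini-Hochberg adjustment and a threshold of 0.05. CPM used TMM-scaled library sizes, and log2 CPM used a prior count of 2. The scripts were tested on simulated data. No pair of libraries agreed within sampling noise (chi-square per degree of freedom 11.8 to 68.6). Exon length is the summed length of a gene's exons. Depth was 14688404 to 18585412 counts per library, and precision is lower for genes of few counts such as Fgf21.

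The 39 genes, the other lists and the alternatives were chosen with earlier results of these data known. Values per mouse are given for genes with an unadjusted p under 0.05, without overlap, among the 5 largest log2 fold changes, or encoding a nuclear regulator or Cpt1a. Outside the 39, called genes and the 3 of lowest p in each list are named, except 1 that is not reported here. Alternatives were a prior count of 0.5, summed gene copies, DESeq2 1.42.0, limma-voom (limma 3.58.1), library totals alone or RLE scaling in place of TMM, a stricter filter (10 counts or more in all 8 mice) or none, the title or library number as a block, and leaving out each mouse. Samples on other diets and single-cell data were not analysed here.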

Additional observations from a re-analysis of the deposited data

Results flagged for a closer look

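In each genotype, a liver standing apart from the remaining 3 was looked for among the 39 genes and Nus1 on the log2 CPM scale and in the library totals, 82 groups in all, with a critical value that chance passes in about 1 of 20 groups. There were 2 such mice, with 4.1 expected by chance. Hsd17b4 was at 9.243 log2 CPM in N-LKO replicate 2, above the other 3 N-LKO livers, with a gap of 0.868 of the whole range. Nus1 was at 6.359 log2 CPM in WT replicate 1, below the other 3 WT livers, with a gap of 0.904 of the range, and still above each N-LKO liver.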

How the results depend on the processing

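The count of called members was 0 under every alternative with all mice except DESeq2 (2), and 0 to 1 with each mouse left out, the 1 being Acaa1a without WT replicate 1. Members with an unadjusted p under 0.05 numbered 7, with 6 lower and 1 higher in N-LKO livers. DESeq2 gave 11 and 10 lower. The fit with the replicate block by library number gave 11, with 2 higher. With each mouse left out they numbered 2 to 12, with 1 to 11 lower and 1 to 2 higher. The fewest, 2, came without WT replicate 4 or N-LKO replicate 4, followed by 3 without WT replicate 3 or N-LKO replicate 1 and 4 without N-LKO replicate 3, and there were 11 without WT replicate 1 and 12 without N-LKO replicate 2. Library totals alone left 1 member without overlap, Acaa1a, in place of 2, since Ucp2 then overlapped. Other pathway genes called were 1 (Fgf21), 6 with DESeq2, 0 with the replicate block by title number, 2 with the block by library number, 0 to 2 with each mouse left out and 0 without both libraries of highest haemoglobin, an alternative chosen after seeing the data. Nr1d1, a clock gene, was called with the replicate block by library number (adjusted p = 0.0393, edgeR), and Acaa1a was at 0.157 and 0.145 with the blocks by title and library number. The sources used here do not say that mice of the same number are paired. Deviations of same-numbered mice correlated at -0.085 to 0.062 by title and -0.0092 to 0.17 by library number. By title 0 and by library number 5 of 8 mice were closest to their own number. With 4 mice per genotype these values cannot settle whether a number links mice. The blocks called 131 and 113 genes in all, against 148, DESeq2 371 and the filter of at least 10 counts in every mouse 98, and each mouse left out 71 to 173.

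The sign was the same under every setting for 23 of the 39 genes, among them the 7 with an unadjusted p under 0.05. Library totals alone turned Crat (-0.0205), Acadvl (-0.0209), Acads (-0.0167), Echs1 (-0.0127) and Eci2 (-0.0252). Without both libraries of highest haemoglobin Acaa2 (0.00831), Eci2 (-0.00582), Abcd2 (-0.0493), Cyp4a10 (-0.00864) and Pdk4 (-0.0853) turned, without a filter Eci2 (-0.000221), and summed with its copies Cyp4a10 (-0.0656). With each mouse left out, log2 fold changes crossed 0 for Ppara (-0.211 to 0.0478), Cpt2 (-0.0254 to 0.135), Crat (-0.088 to 0.11), Acadvl (-0.0107 to 0.0324), Acads (-0.0395 to 0.0725), Echs1 (-0.019 to 0.092), Eci2 (-0.0457 to 0.0513), Abcd2 (-0.0889 to 0.355), Abcd3 (-0.0314 to 0.108), Acat1 (-0.0754 to 0.02), Acot3 (-0.77 to 0.0711), Acot4 (-0.287 to 0.0447), Cyp4a10 (-0.0175 to 0.104) and Vnn1 (-0.345 to 0.0636). None of these was called in any setting, and the cause was not tested.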
